A study of Mus musculus with 24 samples.

Results

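The interferon-inducible GTPases described here are 10 genes listed by symbol, of which 9 were present among the 13290 genes of the count tables: the guanylate-binding proteins Gbp2, Gbp3, Gbp5, Gbp6 and Gbp7, and the immunity-related GTPases Irgm1, Irgm2, Igtp and Ifi47. The tenth, Iigp1, was not among the listed genes and is not analysed here. Genes were taken by symbol alone, without a threshold on any value. The list was chosen with earlier results of these data known, so counts of called members are descriptions throughout. RNA was sequenced from BV2, a mouse microglial line immortalised for culture, and from extracellular vesicles (EVs), the membrane-bound particles that BV2 releases. Cultures were untreated (control) or received 100 ng/mL LPS, a bacterial outer membrane component sensed through TLR4, 50 ng/mL IL-10 or 50 ng/mL TGF-β, the last pair being cytokines that restrain inflammation, for 72 h. Each of the 4 treatments was measured in cells and in EVs with 3 libraries, 24 in all. BV2 is 1 cell line grown in culture. Whether the 3 libraries of a group are separate cultures is not stated in the labels, and the p-values here speak only to library-to-library spread, which may be technical.

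These GTPases are the classical cell-autonomous effectors of interferon-γ. Interferon receptors signal through JAK kinases to STAT factors, which bind GAS elements (the interferon-γ activated site), and to STAT and IRF complexes that bind ISRE elements (the interferon-stimulated response element). Guanylate-binding proteins (GBPs) are large, dynamin-like GTPases that assemble on pathogen vacuoles and on bacterial LPS and feed the inflammatory caspases. Immunity-related GTPases (IRGs) are smaller: effectors such as Ifi47 (Irgd) and Iigp1 load onto vacuoles, while Irgm1, Irgm2 and Igtp (Irgm3) sit on the cell's own membranes and hold the effectors in check.

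The promoters are shown because the family is known to be induced through ISRE and GAS elements. RefSeq (build GRCm38.p6) gave a window from 250 bases before to 50 after the annotated start for 8 of the 9 members, with 2 starts for Gbp3. Gbp2, Gbp3, Gbp5 and Gbp7 lie together on chromosome 3, where RefSeq's gene order is Gbp5, Gbp7, Gbp3, Gbp2b, Gbp2. Irgm1, Irgm2, Igtp and Ifi47 lie on chromosome 11, with Igtp directly beside Irgm2. The windows were searched on both strands for GAAANNGAA, the core of the ISRE, and for TTCNNNGAA, the GAS, which reads the same on both strands. A match is a description of letters, not of binding. Below, the 110 bases before the start are printed 5′ to 3′ on the gene's own strand (170 bases for Gbp5, whose ISRE core match lies farther out), with matches in capitals.
Gbp2: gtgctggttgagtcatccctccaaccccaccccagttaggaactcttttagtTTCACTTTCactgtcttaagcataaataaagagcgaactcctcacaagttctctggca
Gbp3: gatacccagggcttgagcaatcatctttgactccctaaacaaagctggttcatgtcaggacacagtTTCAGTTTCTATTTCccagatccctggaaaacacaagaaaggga
Gbp5: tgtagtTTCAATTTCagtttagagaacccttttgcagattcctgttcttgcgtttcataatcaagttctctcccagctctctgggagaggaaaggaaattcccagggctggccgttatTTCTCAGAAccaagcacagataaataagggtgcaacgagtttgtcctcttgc
Gbp7: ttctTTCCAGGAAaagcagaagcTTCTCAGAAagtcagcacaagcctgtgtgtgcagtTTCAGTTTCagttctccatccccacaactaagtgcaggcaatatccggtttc
Irgm1: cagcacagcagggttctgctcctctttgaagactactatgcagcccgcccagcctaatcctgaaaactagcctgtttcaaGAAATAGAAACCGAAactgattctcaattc
Irgm2: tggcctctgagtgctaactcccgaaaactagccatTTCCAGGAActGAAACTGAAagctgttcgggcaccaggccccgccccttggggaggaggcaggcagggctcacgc
Igtp: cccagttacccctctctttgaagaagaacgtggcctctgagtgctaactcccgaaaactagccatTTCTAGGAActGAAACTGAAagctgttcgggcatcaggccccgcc

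The stretches shown are chr3:142620553-142620662 (Gbp2), chr3:142559934-142560043 (Gbp3, the first of its 2 starts), chr3:142496764-142496933 (Gbp5) and chr3:142530226-142530335 (Gbp7), all on the plus strand, and chr11:48871421-48871530 (Irgm1, minus strand), chr11:58214867-58214976 (Irgm2, plus strand) and chr11:58199446-58199555 (Igtp, plus strand). Of the 8 members with a window, 7 held an ISRE core match, all but Ifi47. Over all 32851 RefSeq windows of the same length the share with such a match was 8.56%. In Gbp2 the match begins 58 bases before the start. Gbp7 has it at 52 bases and Igtp at 34. Gbp3 and Irgm1 each hold 2 overlapping matches in this stretch. The GAS motif was found in 4 windows (Gbp5, Gbp7, Irgm2 and Igtp) against 8.3% of all windows, and these 4 held both motifs against 1.07%. The second Gbp3 window and the Ifi47 window held neither, which says only that these letters are not in these windows. Igtp and Irgm2 are close copies in this region: with a shift of 30 bases, 68.1% of 270 aligned bases were identical, and the GAS and ISRE core matches stand in the same arrangement. The other 27 pairs of members reached 27.7% to 34.9% at their best ungapped shift.

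**Figure D1:**
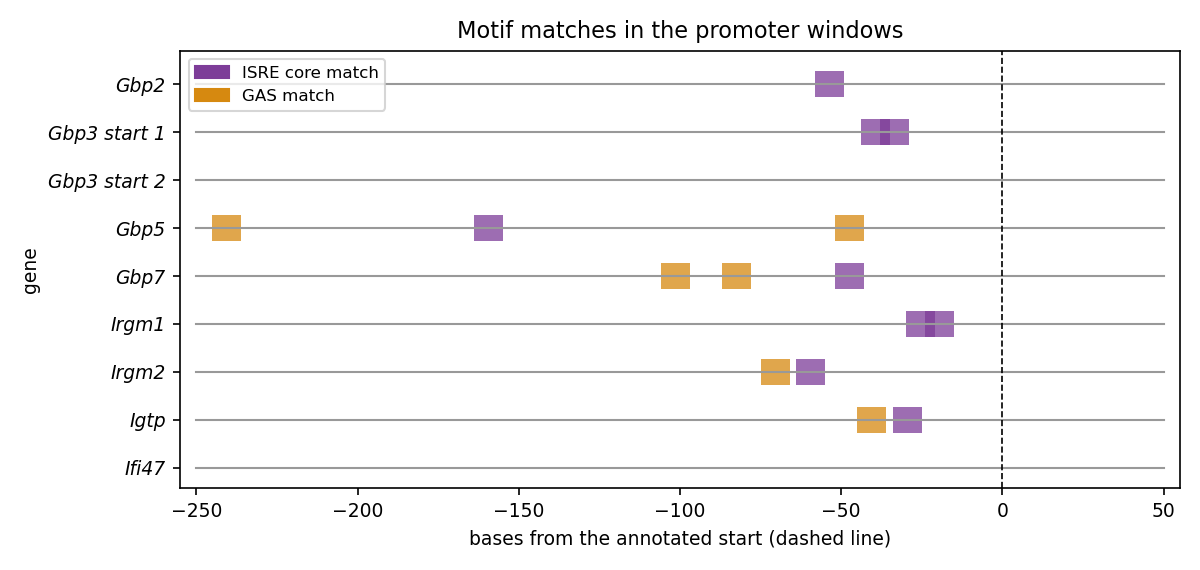
Positions of motif matches in the RefSeq promoter windows; the x axis is the distance in bases from the annotated start and each line is 1 window of 300 bases. ISRE core matches (purple) lie within 64 bases of the start in 6 of the 7 windows that hold one and at 164 bases in Gbp5, and GAS matches (orange) occur in Gbp5, Gbp7, Irgm2 and Igtp.

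Cell libraries held 26.137 to 42.125 M counts (M, mega) while those from EVs held 3.019 to 17.979 M. Levels are given as CPM, counts scaled to a library total of 1 M. At these depths a gene with no count could still lie as high as 0.071 to 0.115 CPM in cells and 0.167 to 0.994 CPM in EVs, taking 3 counts per library as the limit, for counting error only. All 11 microglial and macrophage markers had counts in every group, with a summed level of 14390 to 18480 CPM in cells and 2434 to 16490 CPM in EVs. Of the markers of other lineages, 3 of 5 neuronal ones were listed and summed to at most 0.285 CPM in cells. Astrocyte markers (2 of 5 listed) summed to 5.98 to 12.5 CPM, oligodendrocyte markers (2 of 5) to 34.8 to 50.9, endothelial markers (2 of 5) to at most 1.33 and the 1 listed T or NK cell marker to at most 2.79, while the 1 listed fibroblast marker was at 0. Their part in the results was not tested. Bulk RNA cannot tell a change in the share of cells expressing a gene from a change in RNA per cell. Members of a family this similar can share reads between copies, and how the counting treated such reads is not given in the sources used here, so splits between close copies are uncertain.

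At rest the regulatory IRGs Irgm1, Igtp and Irgm2 were the highest members, above every GBP, while Ifi47 lay among the GBPs. Levels were set side by side per kb of annotated exon, on the scale of CPM per kb. In control cells Irgm1 stood highest at 6.80 ± 0.63 (SD, n = 3), then Igtp at 4.01 ± 0.34 and Irgm2 at 1.70 ± 0.37. The highest of the GBPs was Gbp7 at 0.695 ± 0.173. Ifi47 at 0.472 ± 0.075 and Gbp3 at 0.351 ± 0.118 overlapped each other between libraries. Gbp2 followed at 0.128 ± 0.063, Gbp6 had 1 count in all 3 libraries together, and Gbp5 had none. From Irgm1 down to Ifi47 no neighbours in this order overlapped.

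LPS raised all 9 members in cells, and among those with any count in controls the largest rises were those of Gbp6, Gbp2 and Gbp3. By edgeR's quasi-likelihood test with adjusted p under 0.05 all 9 were called higher, where 28.6% of the 11951 genes tested were called higher and 27.5% lower. The median log2 fold change was 2.23 over the members and 0.007 over all tested genes. Gbp2, Gbp5 and Gbp6 passed the filter on low counts only through the LPS libraries, so they had to be higher there to be tested. Their calls and their part in the members' median add no support. The other 6 passed the filter in the control libraries too, and all 6 were called. Because the list was chosen with earlier results of these data known, this count is a description. For all 9 members every LPS library lay above every control library. The share of all genes that did so was not counted, so this is a description.

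Gbp2, a prenylated GBP that coats bacteria and vacuoles, had 0.260, 0.502 and 0.202 CPM in the 3 control libraries and 55.5, 62.2 and 64.6 CPM after LPS. All LPS libraries were more than 100 times above any control. The log2 fold change was 7.46 ± 0.19 (SE), a 175-fold rise (edgeR adjusted p = 2.69e-16). Gbp3, from the same cluster on chromosome 3, had 0.706, 1.32 and 1.42 CPM in controls and 34.9, 39.8 and 40.2 CPM after LPS, without overlap. It rose 31.5-fold (log2 4.98 ± 0.18, edgeR adjusted p = 4.54e-14).

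Gbp6, from the GBP cluster on chromosome 5, had counts of 0, 0 and 1 in controls and of 988, 550 and 651 after LPS. Its level per kb after LPS overlapped that of Gbp7. The ratio of summed counts per total was 1870, with an exact 95% interval of 335 to 73910 for counting error only (edgeR adjusted p = 1.78e-14). Gbp5, a prenylated GBP linked to the NLRP3 inflammasome, was at 0 in all 3 controls and had 81, 36 and 92 counts after LPS. This is at least 19.5-fold higher, with a floor of 3 counts per control library (edgeR adjusted p = 7.22e-07). Its level in LPS cells was 2.00 ± 0.78 CPM (SD, n = 3).

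Gbp7, which has been tied to autophagy and to assembly of the phagocyte oxidase, was the GBP with the smallest rise. It had 3.46, 5.02 and 3.24 CPM in controls and 17.8, 19.9 and 20.1 CPM after LPS. That was a 4.69-fold rise (log2 2.23 ± 0.17, edgeR adjusted p = 2.08e-09), the groups again apart.

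The IRGs rose 2.20- to 3.52-fold. Irgm1, the regulatory IRG whose loss impairs macrophage survival and mitochondrial quality, had 41.9, 41.3 and 35.3 CPM in controls and 111, 127 and 115 CPM after LPS. Even the lowest LPS library was far above the highest control, and the rise was 2.85-fold (log2 1.51 ± 0.09, edgeR adjusted p = 3.19e-11). Igtp and Irgm2 are neighbours in the genome. Igtp went from 8.62, 8.37 and 7.32 CPM to 18.9, 22.9 and 19.7 CPM, and Irgm2 from 7.43, 4.73 and 6.61 CPM to 13.4, 16.1 and 13.7 CPM. Igtp rose 2.41-fold (log2 1.27 ± 0.14, edgeR adjusted p = 2.34e-07) and Irgm2 2.20-fold (log2 1.14 ± 0.17, edgeR adjusted p = 1.62e-05), with 95% intervals of 0.98 to 1.56 and 0.78 to 1.50 on the log2 scale. The difference between the genes was not tested. Ifi47, the effector IRG whose promoter window held neither motif, had 1.04, 1.38 and 1.08 CPM in controls and 4.34, 5.10 and 3.54 CPM after LPS. It rose 3.52-fold (log2 1.81 ± 0.28, edgeR adjusted p = 1.76e-05), more than the other IRGs in point value.

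**Figure D2:**
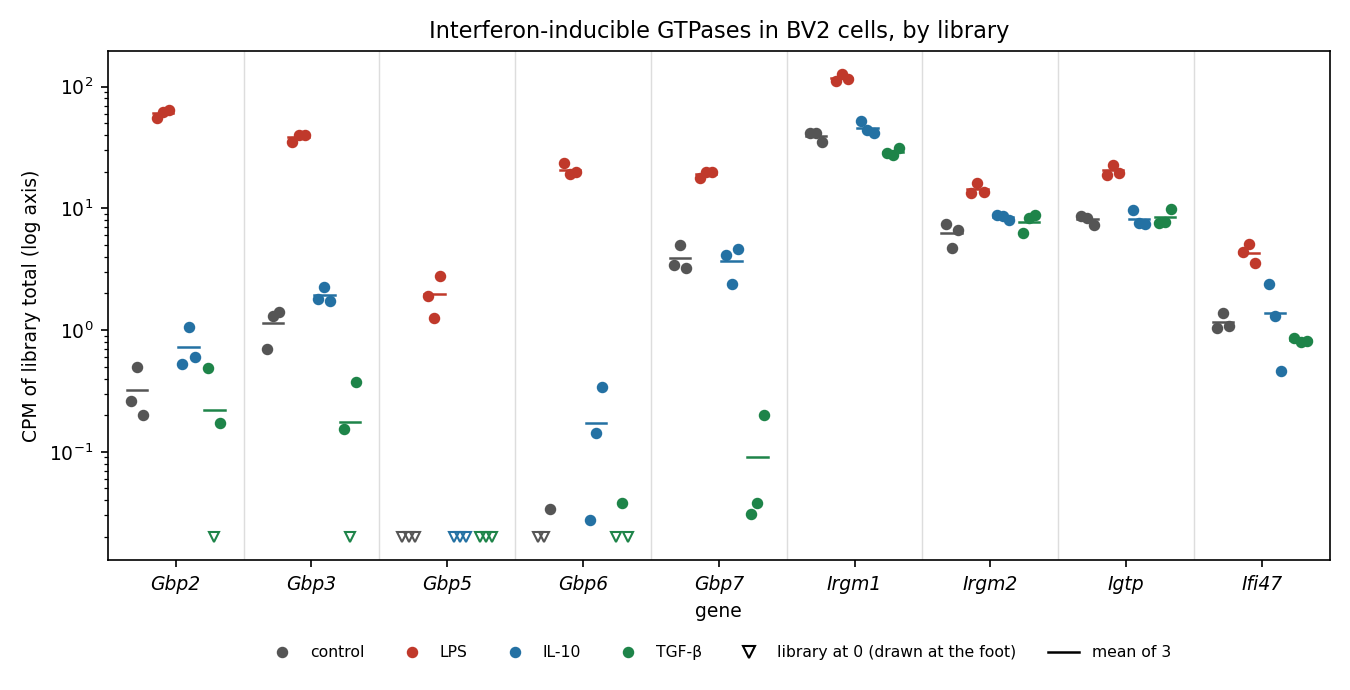
CPM of each of the 9 members in the 12 cell libraries, on a log axis; points are libraries, bars are means of 3, and open triangles at the foot mark libraries at 0. LPS libraries (red) lie above all others for every member, and the Gbp7 libraries after TGF-β (green) lie at 0.0306 to 0.202 CPM against 3.24 to 5.02 CPM in controls.

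The balance within the family shifted with LPS. The 5 GBPs made up 8.92% ± 1.97 (SD, n = 3) of the summed CPM of the 9 members in control cells and 47.4% ± 1.94 in LPS cells. IL-10 cells gave a share of 9.38% ± 1.76 and TGF-β cells one of 1.05% ± 0.758. The LPS libraries (45.4% to 49.3%) and the TGF-β libraries (0.173% to 1.52%) thus stood on opposite sides of the control and IL-10 libraries, which overlapped. Per kb, Gbp2 at 24.2 ± 1.88 was the highest member in LPS cells, above Irgm1 at 20.3 ± 1.45, and their libraries did not overlap. That order rests on the annotated exon lengths used, 2516 bases for Gbp2 and 5810 for Irgm1. In CPM, without length, Irgm1 stood higher, at 118 ± 8.43 against 60.8 ± 4.73 for Gbp2. The values that follow are again per kb. Gbp3 at 11.7 ± 0.897 and Igtp at 10.1 ± 1.05 overlapped, as did Irgm2, Gbp6 and Gbp7 at 3.91 ± 0.396, 3.50 ± 0.385 and 3.43 ± 0.225. Ifi47 at 1.75 ± 0.315 and Gbp5 at 0.301 ± 0.117 came last.

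With IL-10 only Irgm1 and Irgm2 of the tested members were called. Of the 7 members tested, 2 were called higher and none lower by edgeR, where 12.3% of the 11790 genes tested were called higher and 10.9% lower. The median log2 fold change was 0.40 over those 7 members and -0.004 over all tested genes. Gbp5 was at 0 in all IL-10 libraries, and Gbp6 was not tested. Gbp6 had 1, 5 and 12 counts against 0, 0 and 1 in controls, a ratio of summed counts per total of 15.0 with an exact 95% interval of 2.37 to 626 for counting error only.

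The members called were regulatory IRGs. Irgm2 had 8.87, 8.71 and 8.02 CPM after IL-10, all above the highest control, a 1.52-fold rise (log2 0.61 ± 0.18, edgeR adjusted p = 0.0226). Irgm1 had 52.3, 44.2 and 41.3 CPM, the lowest of them below control library 1, a 1.30-fold rise (log2 0.38 ± 0.10, edgeR adjusted p = 0.0101). Both calls rest on single libraries. Irgm2 was no longer called without control library 2 (edgeR adjusted p = 0.113) or IL-10 library 2 (0.0609), and Irgm1 not without control library 3 (0.0734). They also rest on the scaling: with library size alone, which puts the median of all genes at -0.16 on the log2 scale, the log2 fold changes were 0.45 for Irgm2 (edgeR adjusted p = 0.0676) and 0.22 for Irgm1 (0.111). Over the 13 alternatives, adjusted p ranged from 0.0129 to 0.113 for Irgm2 and from 0.00312 to 0.111 for Irgm1 by edgeR, DESeq2 or limma.

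Among the other members after IL-10, Gbp2 had 0.523, 1.06 and 0.602 CPM and Gbp3 1.82, 2.24 and 1.75 CPM. For both, every IL-10 library lay above every control, yet the log2 fold changes of 1.32 ± 0.57 (edgeR adjusted p = 0.106) and 0.90 ± 0.37 (edgeR adjusted p = 0.0861) did not pass. That lack of overlap was not counted over all genes. Gbp2 passed the low-count filter only through the IL-10 libraries, so its part in the members' median after IL-10 adds no support. Gbp7 (0.09 ± 0.27), Igtp (0.18 ± 0.16) and Ifi47 (0.40 ± 0.48) had log2 fold changes whose 95% intervals spanned 0, and their IL-10 and control libraries overlapped. The widest of these intervals, for Ifi47, was -0.62 to 1.41.

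With TGF-β, Gbp7, Gbp3 and Irgm1 were called lower, while Irgm2 and Igtp overlapped their controls. Of those called, only Irgm1 passed the low-count filter in both groups. Of the 6 members tested, 3 were called lower by edgeR, where 15.4% of the 11798 genes tested were called lower, and none was called higher, where the share was 14.5%. The median log2 fold change was -0.46 over those 6 members and 0.006 over all tested genes. Gbp2, Gbp5 and Gbp6 were too low in both groups to be tested. Gbp3 and Gbp7 passed the filter only through the control libraries, so they had to be lower with TGF-β to be tested. Their calls and their part in the members' median add no support. Of the other 4 tested members 1 was called, Irgm1. Among these 4 the log2 fold changes went both ways, at -0.43 for Irgm1, -0.50 for Ifi47, 0.32 for Irgm2 and 0.06 for Igtp.

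Gbp7 showed the deepest fall. It had 1, 1 and 7 counts in the TGF-β libraries (0.0306, 0.0383 and 0.202 CPM) against 93, 160 and 96 counts in controls. Every TGF-β library was more than 10 times below every control, and the fitted decrease was 39.3-fold (log2 -5.30 ± 0.52, edgeR adjusted p = 4.51e-06). Gbp3, the next gene in the RefSeq order, had 0.153, 0 and 0.375 CPM, all below the controls, and was 6.07-fold lower (log2 -2.60 ± 0.69, edgeR adjusted p = 0.0122). Without control library 3 the Gbp3 value was -2.42 and no longer called (edgeR adjusted p = 0.0577, the highest of 12 alternatives, of which the lowest was 0.000397). Gbp2, at 0.489, 0 and 0.173 CPM, overlapped its controls.

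Irgm1 had 28.7, 27.4 and 31.6 CPM after TGF-β, all below the controls, a 1.35-fold decrease (log2 -0.43 ± 0.10, edgeR adjusted p = 0.00689). Irgm2 (6.24, 8.26 and 8.89 CPM) and Igtp (7.61, 7.69 and 9.96 CPM) overlapped their controls. Their log2 fold changes were 0.32 ± 0.21 and 0.06 ± 0.17, with 95% intervals of -0.14 to 0.78 and -0.31 to 0.43. Ifi47 had 0.856, 0.803 and 0.809 CPM, below every control, and did not pass (log2 -0.50 ± 0.39, edgeR adjusted p = 0.365).

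**Figure D3:**
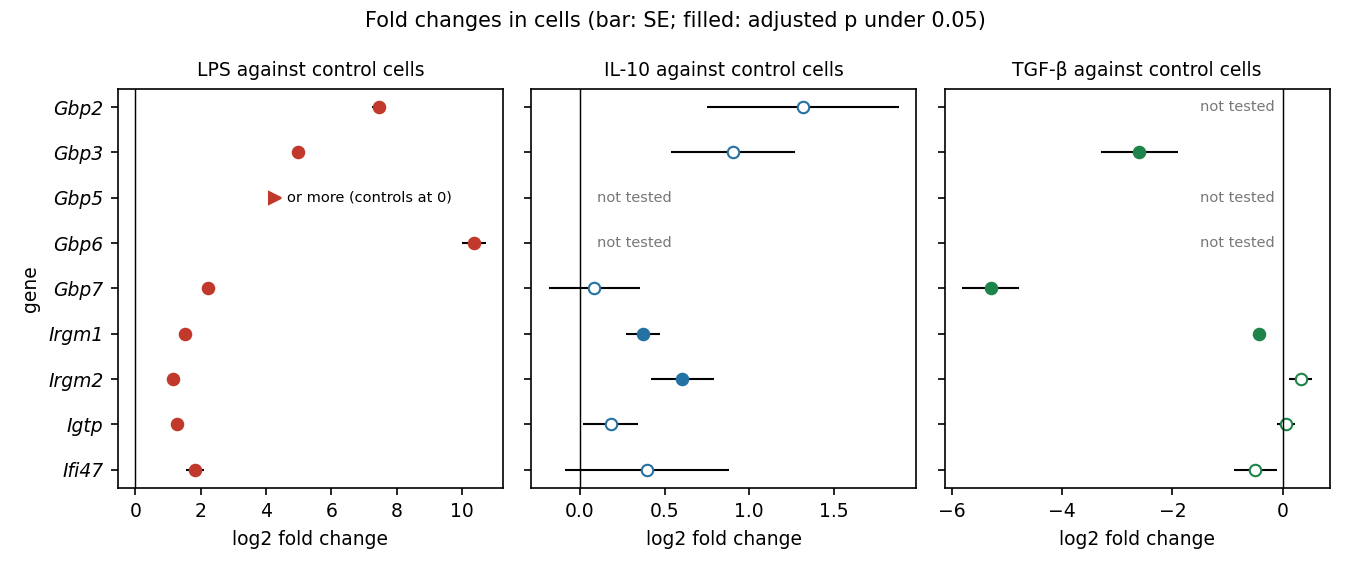
Log2 fold changes of the members against control cells for LPS, IL-10 and TGF-β, each panel on its own x axis; bars are standard errors and filled points passed edgeR's test at adjusted p under 0.05. Gbp5 after LPS is drawn at its lower bound, all 9 members rose with LPS, and Gbp7 and Gbp3 show the largest decreases with TGF-β.

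Direct comparisons between treatments used all 12 cell libraries in 1 fit. All 9 members were higher after LPS than after IL-10, where 27% of 12148 genes were called higher, and all 9 were higher than after TGF-β, where 29.3% were. Only the LPS group of the pair carried Gbp5 and Gbp6 past the low-count filter in the first comparison, and Gbp2, Gbp3, Gbp5, Gbp6 and Gbp7 in the second. Those calls are not taken as support. The other 7 and 4 members passed in both groups, and all were called. The smallest of the 18 differences was that of Irgm2 against IL-10, at a log2 of 0.53 ± 0.18 (edgeR adjusted p = 0.0158). It was not called without LPS library 2 (edgeR adjusted p = 0.0808) or without IL-10 library 3 (0.0522), and its 17 alternatives ranged from 0.0055 to 0.0808. TGF-β against IL-10 put 5 members lower and none higher by edgeR, where 20% of genes were called lower. Of the 5, Gbp2, Gbp3 and Gbp7 passed the filter in the IL-10 but not the TGF-β group, and Gbp6 in neither, so these calls are not taken as support. Of the 4 members that passed in both groups 1 was called, Irgm1. The 5 called were Gbp7 (log2 -5.38 ± 0.43, edgeR adjusted p = 5.75e-09), Gbp3 (-3.47 ± 0.43, 5.67e-06), Irgm1 (-0.80 ± 0.10, 2.68e-06), Gbp6 (-3.73 ± 1.04, 0.00826) and Gbp2 (-1.77 ± 0.58, 0.0287). The call for Gbp6 was lost without IL-10 library 3 (edgeR adjusted p = 0.074; 0.000932 to 0.074 over 17 alternatives). That for Gbp2 was lost without IL-10 library 2 (edgeR adjusted p = 0.103) or TGF-β library 3 (0.116) and with limma-voom (0.0642), with 0.000638 to 0.116 over 17 alternatives. Irgm2 (-0.28 ± 0.18), Igtp (-0.12 ± 0.15) and Ifi47 (-0.89 ± 0.43) did not pass, with 95% intervals of -0.66 to 0.09, -0.44 to 0.20 and -1.79 to 0.01. Without IL-10 library 3 Ifi47 was called, at -1.29 (edgeR adjusted p = 0.00831; up to 0.683 over 17 alternatives). Gbp5 was at 0 in both groups.

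Of 22 further interferon-inducible or related GTPases, 10 were among the listed genes. After LPS 4 of them were called higher and 3 lower in cells by edgeR, where 28.6% and 27.5% of all tested genes were. The median log2 fold change over the 10 was 0.42. Those that rose had mean levels under 0.5 CPM in controls and passed the low-count filter only through the LPS libraries. Their calls and their part in that median add no support. Gm12250 (Irgb10), the IRG next to Igtp in RefSeq's order and one known to reach bacterial membranes with the GBPs, rose from a mean of 0.0574 to one of 2.56 CPM (log2 5.34 ± 0.60, edgeR adjusted p = 3.46e-07). Gbp9, of the chromosome 5 cluster, was at 0 in all controls and at 2.19 ± 0.87 CPM (SD, n = 3) after LPS, at least 21.4-fold higher (edgeR adjusted p = 5.08e-07). The antiviral dynamin-like GTPases Mx1 and Mx2 rose by log2 5.48 ± 0.64 and 2.53 ± 0.42 (edgeR adjusted p = 6.74e-07 and 4.67e-05).

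Not every relative rose. Irgq, a divergent IRG-like protein, fell after LPS from 28.2 to 15.9 CPM (log2 -0.89 ± 0.11, edgeR adjusted p = 1.16e-06), and the large GTPase genes 9930111J21Rik1 and 9930111J21Rik2 also fell (log2 -0.83 ± 0.14 and -0.96 ± 0.14, edgeR adjusted p = 5.69e-05 and 1.03e-05). Gvin1, Gm4070 and Gm5431 did not pass, at log2 0.95 ± 0.42, -0.10 ± 0.31 and -0.30 ± 0.15. After IL-10 none of the 7 tested relatives was called higher (12.3% of all tested genes) and 1 was called lower (10.9%). After TGF-β none of 7 was called in either direction, where 14.5% of all tested genes were called higher and 15.4% lower.

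None of the 9 interferon ligand genes looked for (among them Ifng, Ifnb1, Ifna2 and Ifna4) was among the listed genes. Every listed gene had at least 240 counts over the 24 libraries. All 7 receptor chains and JAK kinases were listed and tested. With LPS 3 were called higher and 1 lower by edgeR, with IL-10 5 and 1, and with TGF-β 1 and 3. The shares over all tested genes given above (28.6% higher and 27.5% lower with LPS, 12.3% and 10.9% with IL-10, 14.5% and 15.4% with TGF-β) stand beside this and the next lists, and no list was tested against other genes. With LPS the kinases Tyk2 and Jak2 rose by log2 0.72 ± 0.07 and 1.24 ± 0.22 (edgeR adjusted p = 4.93e-08 and 0.00108) and the receptor chain Ifnar2 by 0.37 ± 0.07 (edgeR adjusted p = 0.000309). Ifngr1, the ligand-binding chain of the interferon-γ receptor, fell by 0.67 ± 0.09 on the log2 scale (edgeR adjusted p = 7.65e-06).

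The STAT and IRF factors that act on ISRE and GAS elements moved both ways with LPS. Their list also held Nlrc5, which is neither a STAT nor an IRF. Of 10 tested, Nlrc5 among them, 5 were called higher and 2 lower by edgeR, with a median log2 fold change of 0.24. Nlrc5 was among the 5 higher (log2 0.485 ± 0.09, edgeR adjusted p = 0.000135). Irf1 and Irf7 rose by 1.31 ± 0.10 and 1.53 ± 0.10 (edgeR adjusted p = 1.58e-09 and 7.46e-10) and Stat2 by 0.72 ± 0.07 (edgeR adjusted p = 9.95e-08). Irf9, the DNA-binding partner of the STATs at the ISRE, rose by 0.61 ± 0.09 (edgeR adjusted p = 1.29e-05). With IL-10 7 were called higher, again counting Nlrc5, and 1 lower, and with TGF-β 1 higher and 5 lower. Irf7, a STAT-induced amplifier of type I interferon responses, fell with TGF-β from 75.7 ± 6.81 to 11.8 ± 4.05 CPM (SD, n = 3; log2 -2.68 ± 0.21, edgeR adjusted p = 2.25e-05). Irf1 rose with TGF-β instead (log2 0.53 ± 0.13, edgeR adjusted p = 0.00702).

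Of the 7 inhibitors of this pathway, LPS raised 5 and lowered none by edgeR, while Cish (log2 0.45 ± 0.29) and Pias1 (-0.14 ± 0.09) did not pass. The largest changes by p were those of Usp18 (log2 1.87 ± 0.08, edgeR adjusted p = 7.24e-13), Socs1 (5.24 ± 0.35, 2.23e-10), Socs3 (1.12 ± 0.11, 6.06e-08) and Ptpn6 (0.53 ± 0.06, 6.05e-07). Socs1 passed the low-count filter only through the LPS libraries. With IL-10 2 of 6 were called higher, where Socs3, the feedback inhibitor induced by STAT3, rose by log2 3.28 ± 0.09 (edgeR adjusted p = 1.41e-14). With TGF-β 3 of 7 were called higher and 1 lower. Of the 3, Socs1 passed the low-count filter only through the TGF-β libraries. The one that fell was Usp18, which restrains the type I interferon receptor (log2 -1.38 ± 0.13, edgeR adjusted p = 3.75e-06).

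**Figure D4:**
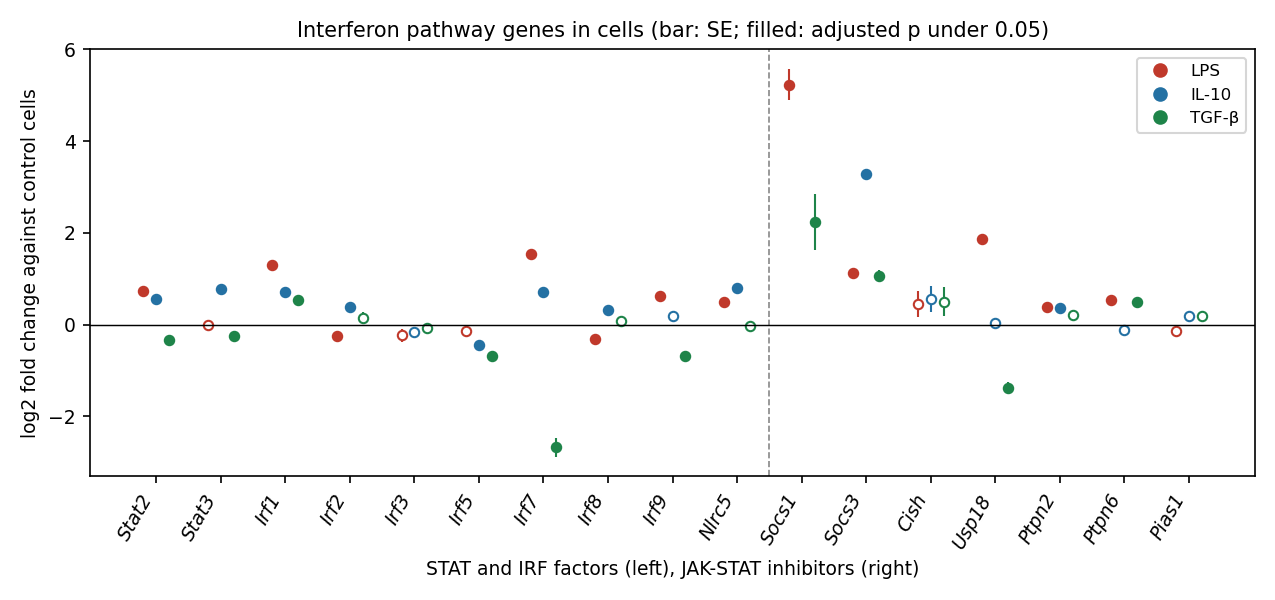
Log2 fold changes against control cells of the tested STAT and IRF factors and Nlrc5 (left of the dashed line) and JAK-STAT inhibitors (right), with LPS in red, IL-10 in blue and TGF-β in green; bars are standard errors and filled points passed edgeR's test at adjusted p under 0.05. Irf7 and Usp18 rose with LPS and fell with TGF-β, and Socs3 rose most with IL-10.

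Among 8 tested genes of cytosolic LPS sensing and inflammasomes, the pathway that GBPs feed, LPS raised 5 and lowered none by edgeR (median log2 fold change 1.11). They included Casp4 (caspase-11, the LPS-binding caspase), at log2 1.50 ± 0.13 (edgeR adjusted p = 8.73e-09), the cytokine Il1b at 5.89 ± 0.13 (6.57e-14), the nucleic acid sensor Zbp1 at 4.24 ± 0.18 (6.22e-11) and Nlrp3 at 1.75 ± 0.14 (2.46e-09). IL-10 raised 3 and lowered 1, and TGF-β raised none and lowered 4. Casp4 rose with IL-10 (log2 1.84 ± 0.12, edgeR adjusted p = 1.58e-09) and fell with TGF-β (-1.27 ± 0.20, 0.000312).

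The ATG8 conjugation genes, whose products the IRGs need to load correctly, moved both ways. With LPS 4 of 12 were called higher and 5 lower by edgeR, with a median of -0.07. Map1lc3a fell by log2 1.51 ± 0.08 (edgeR adjusted p = 1.12e-11) and Sqstm1, an autophagy receptor, rose by 0.58 ± 0.07 (edgeR adjusted p = 9.32e-07). Of the 6 genes for prenylation and processing of CaaX proteins such as Gbp2 and Gbp5, only Zmpste24 was called after LPS (log2 0.60 ± 0.08, edgeR adjusted p = 5.19e-06).

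The genes whose profile was most like the members' mean profile across the 12 cell libraries were Acod1, Pgap2, Psme2, Marco and Odc1, with Pearson r of 0.998, 0.996, 0.996, 0.995 and 0.995 among 10081 genes compared. The libraries of a treatment are not independent points for this measure, so it is a description. Acod1, which makes itaconate, had mean levels of 19.1 CPM in control, 3437 CPM in LPS, 32.8 CPM in IL-10 and 10.6 CPM in TGF-β cells. Psme2, a proteasome activator subunit, had 118, 342, 125 and 85.5 CPM in the same order. Within the family, Pearson r across these libraries was highest between Gbp2 and Gbp6 (0.990) and lowest between Gbp7 and Irgm2 (0.585).

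EV libraries were sparser, and the LPS EVs stood apart from the other EV groups. Genes at 0 made up 31.8% ± 2.48 (SD, n = 3) of the listed genes in control EVs, 31.3% ± 8.08 in IL-10 EVs, 32.2% ± 15.8 in TGF-β EVs and 2.04% ± 2.09 in LPS EVs. The 116 genes with no count in any cell library had medians of 9.38 to 40.1 CPM in the LPS EV libraries and of 0 in every other EV library. Their part in the member results in LPS EVs was not tested beyond the values below. Because all 3 LPS EV libraries show it, no LPS EV result can be given without them. Markers of other lineages did not all move one way. The listed fibroblast marker (1 of 5) and endothelial markers (2 of 5) were at 0 in control, IL-10 and TGF-β EVs and summed to 10.3 to 51.3 and 13.7 to 72.5 CPM in LPS EVs. Neuronal markers summed to 0 to 9.13 CPM in control and 20.1 to 146 CPM in LPS EVs, and astrocyte markers to 0 to 36.2 and 34.1 to 159 CPM. Oligodendrocyte markers summed to 0 to 88.0 CPM in control and 6.21 to 31.8 CPM in LPS EVs. The 1 listed T or NK cell marker was at 0 in control EVs and at up to 6.62 CPM in LPS EVs and 9.38 CPM in TGF-β EVs.

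Member RNA was patchy in EVs except for Irgm1. Irgm1 had counts in 11 of the 12 EV libraries, Gbp2, Gbp7 and Igtp in 6, Gbp3 and Irgm2 in 5, Gbp6 in 4, and Gbp5 and Ifi47 in 3. In control EVs 1 of 9 members was detected in all 3 libraries, where 51% of all listed genes were. In LPS EVs it was 8 of 9 (94.7% of all genes), in IL-10 EVs 1 of 9 (50.9%) and in TGF-β EVs 0 of 9 (46.1%). The summed level of the members was 86.2 ± 61.2 CPM (SD, n = 3) in control EVs, 447 ± 122 in LPS EVs, 71.9 ± 41.1 in IL-10 EVs and 32.6 ± 28.4 in TGF-β EVs. In cells the same sums were 60.4 ± 4.54, 298 ± 16.2, 70.7 ± 7.99 and 46.8 ± 4.54 CPM. In both compartments the LPS libraries were the highest. In LPS EVs alone the genes silent in cells also had a median above 0, of 5.88 CPM per kb. The part of that level in the members' sum was not tested.

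LPS EVs against control EVs gave 2 called members of 8 tested, both higher, where 13.9% of 12216 genes were called higher. Only Irgm1 passed the low-count filter in the control EVs themselves. Gbp2, Gbp3, Gbp6, Gbp7, Irgm2 and Igtp passed it only through the LPS EVs, so the Gbp6 call adds no support. Irgm1 had 56.8, 16.7 and 45.2 CPM in control EVs and 140, 167 and 254 CPM in LPS EVs, without overlap, a 4.22-fold rise (log2 2.08 ± 0.55, edgeR adjusted p = 0.0443). Gbp6 was at 0 in the control EVs and had 8, 20 and 87 counts in LPS EVs (edgeR adjusted p = 0.0263). With a floor of 3 counts per control library this is at least 19.8-fold higher, a bound for counting error only. The calls were not stable. Irgm1 was not called without any 1 of the LPS EV libraries (edgeR adjusted p = 0.109, 0.112 and 0.194), without control EV library 2 (0.0732) or without control EV library 3 (0.0709). Nor was it called with limma-voom (adjusted p = 0.106), the filter of 50 counts (0.0727) or all 12 EV libraries (0.532, edgeR), and it ranged from 0.00149 to 0.532 over 14 alternatives. Gbp6 was not called without any 1 of the LPS EV libraries (edgeR adjusted p = 0.0713, 0.107 and 0.0976) or with all 12 EV libraries (0.133), with 0.000499 to 0.133 over 12 alternatives. Irgm1 kept its direction in all of these.

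The level of the genes silent in cells bears on these calls. Per kb, the median silent gene had 5.88 CPM in LPS EVs on average. Gbp6 had 1.25 CPM per kb there, and 113 of the 116 silent genes stood at or above it. Irgm1 (32.2), Gbp2 (32.1) and Gbp3 (27.6 CPM per kb) had 4, 5 and 7 silent genes at or above them. For Gbp7 it was 53, for Igtp 41, for Irgm2 82, for Gbp5 107 and for Ifi47 113. With every EV library's counts lowered by its silent-gene level, chosen after the data were seen, the log2 fold change of Irgm1 was 2.47 and not called (edgeR adjusted p = 0.139).

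Irgm1, Gbp2 and Gbp3 had the highest levels per kb of the members in LPS EVs. Gbp2 had 50.3, 54.98 and 137 CPM in LPS EVs against 17.4, 0 and 14.1 in control EVs, and Gbp3 had 101, 91.4 and 78.0 CPM against 21.1, 0 and 0. Gbp7 had 28.4, 37.4 and 38.2 CPM against 24.3, 0 and 0. For each of these, and for Igtp, every LPS EV library lay above every control EV library, yet none passed the test (edgeR adjusted p = 0.414, 0.442, 0.801 and 0.578). The share of all genes without such overlap was not counted, so the lack of overlap only describes these members. Over all tested genes the median log2 fold change was 0.33. Control EV library 1 alone carried the counts of Gbp3 and Gbp7 in that group. The GBPs made up 51.0% ± 2.09 (SD, n = 3) of the members' summed CPM in LPS EVs, beside 47.4% ± 1.94 in LPS cells. The median gene silent in cells had 5.88 CPM per kb in LPS EVs. The part of that level in the EV share was not tested, so the shares are not read as alike. In control EVs the 3 libraries gave 47.7%, 0% and 12.8%.

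No member was called in IL-10 or TGF-β EVs, with 2 of 9 tested each and 0% of 8992 and 9093 genes called by edgeR. At an unadjusted p under 0.05 edgeR had none of the members and 177 and 360 of all genes. DESeq2 and limma-voom called no member, where DESeq2 called 0.525% and 0.877% of all tested genes. Irgm1 had 13.2, 67.8 and 90.5 CPM in IL-10 EVs and 0, 32.0 and 45.4 CPM in TGF-β EVs, both overlapping control EVs.

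Whether a treatment acted differently on EVs and on cells was tested as the interaction of compartment and treatment. By edgeR no member was called for LPS (9 tested, 16.1% of 13263 genes called), IL-10 (7 tested, 0.285% of 11930) or TGF-β (7 tested, 0.31% of 11954), with 1, 2 and 2 members at an unadjusted p under 0.05. DESeq2 called 1 member for LPS, 2 for IL-10 and none for TGF-β, all lower. It called 24.6%, 6.6% and 7.38% of all tested genes in either direction. The difference between the Irgm1 responses to LPS, 2.85-fold in cells and 4.22-fold in EVs, did not pass (edgeR adjusted p = 0.803), which does not show that they are equal.

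EVs were also set against cells of the same treatment. Of 7 members tested in controls none was called (10.7% of 11427 genes called in either direction), and none had an unadjusted edgeR p under 0.05. After LPS, Gbp3 alone of 9 was called higher in EVs, at 1.97-fold (log2 0.98 ± 0.27, edgeR adjusted p = 0.0211), where 25.3% of 13113 genes were called higher, and none was called lower (15.2%). It was not called without any 1 of the LPS cell libraries (edgeR adjusted p = 0.107, 0.0883 and 0.0842), with 0.00248 to 0.107 over 12 alternatives. After IL-10, Gbp2 was called lower of 6 tested (10.2% of 11447 genes): it was at 0 in EVs, at least 1.44-fold below cells (edgeR adjusted p = 0.0218). The call was lost with DESeq2 (adjusted p = 0.0787) and limma-voom (0.0702), and the lowest of its 8 alternatives was 0.0217. After TGF-β, Irgm2, Igtp and Ifi47 were called lower of 4 tested (8.99% of 11389 genes). All of these, and Gbp2 after IL-10, passed the low-count filter only through the cells, where they are higher, so the counts add no support. The 3 members were at 0 in all 3 EV libraries, at least 16.7-, 18.1- and 1.77-fold below cells (edgeR adjusted p = 0.0169, 0.0169 and 0.0136). The bounds in this paragraph cover counting error only. EV libraries of a group can differ by more: Irgm2 had 0, 0 and 321 counts in control EVs. TGF-β EV library 1 had no count for any member, and 50% of all listed genes were at 0 in it. The calls for Irgm2 and Igtp were lost without any 1 of the TGF-β cell libraries (edgeR adjusted p from 0.0991 to 0.104), while the lowest of their alternatives were 1.61e-09 and 5.45e-10.

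**Figure D5:**
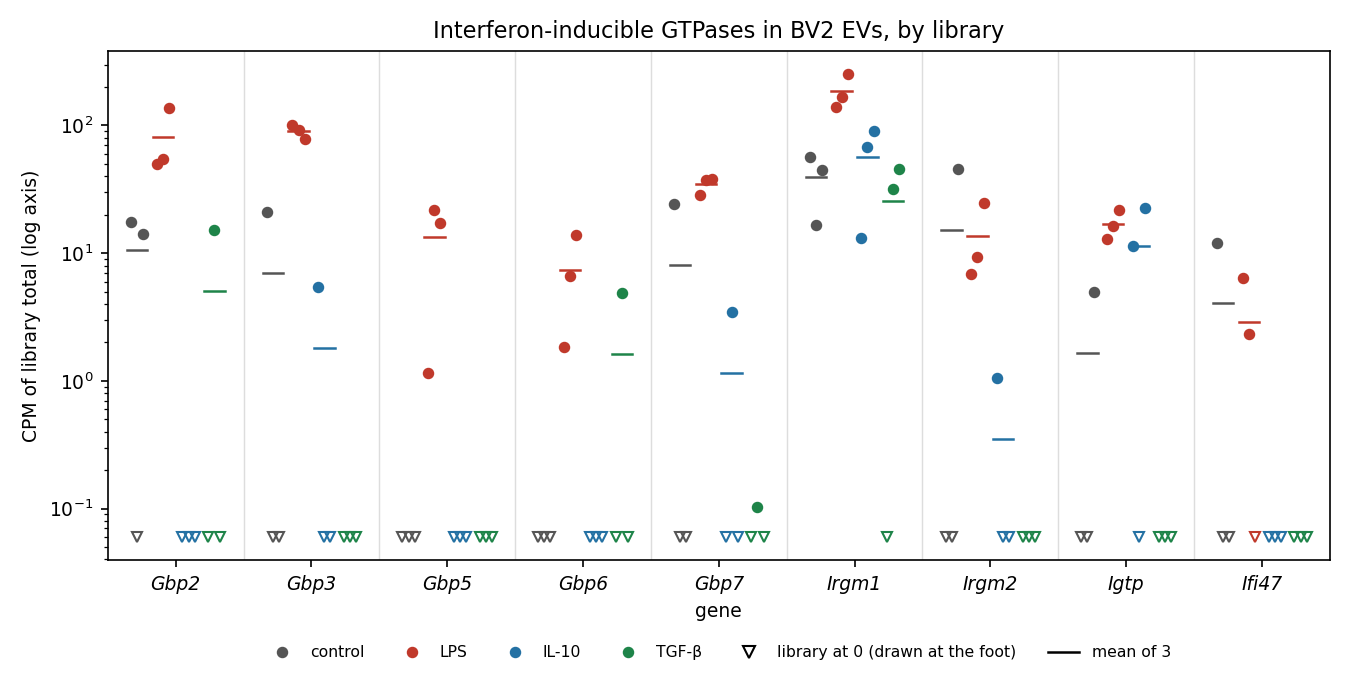
CPM of each of the 9 members in the 12 EV libraries, on a log axis; points are libraries, bars are means of 3, and open triangles at the foot mark libraries at 0. LPS EVs (red) have counts in all 3 libraries for 8 members, Irgm1 has counts in 11 of 12 libraries, and most other members are at 0 in several libraries of each other group.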

How the data were processed

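RNA-seq of BV2 cells and their EVs was analysed from 6 tables of raw counts per gene, 1 for each treatment and compartment with its controls. The authors deposited whole-number read counts, and the control columns were identical between tables of a compartment, so each was used once. DESeq2 is named per the submitters' processing notes. For the aligner, counter, strand setting and build, no value is given in the sources used here. Recipient cells given EVs, which the series' text also describes, were not analysed here. Column names gave treatment and compartment but no sample, so library numbers are only names.

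Counts were tested with edgeR 4.0.16 in R 4.3.3 (TMM scaling, filterByExpr, which asks for about 10 counts in 3 libraries, robust quasi-likelihood test), with Benjamini-Hochberg adjustment over all genes tested and a threshold of 0.05. The fit was also run on simulated counts in which the changed genes averaged at least 50 counts. Its outcome is not given here, and it does not cover genes below that level. CPM used library totals, and levels per kb used the exon lengths of GENCODE M21, which may differ from the annotation used for counting. Floors of 3 counts per library and exact 95% intervals cover counting error only. Alternatives were RLE scaling, DESeq2 1.42.0, limma 3.58.1 (voom with quality weights), no low-count filter, a mean of at least 50 counts, all 12 libraries of a compartment, and leaving out each library. Library size alone for treatments against controls, and the subtraction of each EV library's silent-gene level, were chosen after seeing the data.

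The members and gene lists were chosen with earlier results of these data known. All members are named. A gene of the pathway lists is not reported here and was left out of their counts. Other GTPases are named where the higher group averaged 50 counts or more, and pathway lists by up to 4 members with the lowest adjusted p after LPS in cells. Genes most alike were ranked by Pearson r of log2 (CPM + 0.5) with the members' mean.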

Additional observations from a re-analysis of the deposited data

How the results depend on the processing

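All 9 members kept their higher call after LPS in cells under every alternative run except the filter of 50 counts, under which Gbp5 was not tested and the other 8 were called. Of 799 alternative values for 55 member log2 fold changes, 756 kept direction and side of the threshold, 36 lost a call, 1 gained one and 6 changed sign. The sign changes were in values near 0: after IL-10, Gbp7 gave -0.072 with library size alone and -0.12 to 0.32 with 1 library left out, and Ifi47 -0.25 to 0.81. After TGF-β, Igtp gave -0.056 to 0.13 with 1 library left out.

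The number of members called higher after IL-10 in cells went from 2 to 0 with library size alone. With 1 library left out it was 1 to 2, where 16.2% to 23.9% of all genes were called in either direction. In LPS EVs against control EVs the 2 called higher became 4 with limma-voom, and 0 with the filter of 50 counts, with all 12 EV libraries, or with EV counts lowered by the silent-gene level. Leaving out 1 library gave 0 to 5, where 0% to 20.3% of all genes were called in either direction. The share of all genes called there was 25.3% with limma-voom and 0.0125% with lowered counts. Library size alone moved the median of all genes there from 0.33 to 0.54 on the log2 scale.

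Percentages in this paragraph are the shares of all tested genes called in either direction. For compartment by LPS, leaving out 1 library gave 0 to 2 members higher and 0 to 1 lower (11.9% to 27%), and DESeq2 1 lower (24.6%). For compartment by IL-10 the lower count was 2 with DESeq2 (6.6%) and 0 to 1 with 1 library left out (0.0167% to 2.24%). For EVs against cells in controls, DESeq2 gave 1 higher (24.3%), and leaving out 1 library 0 to 1 higher and 0 to 3 lower (0% to 35.2%). After LPS the main edgeR fit called 40.5% of genes. There DESeq2 gave 2 higher and 1 lower, limma-voom 3 and 1, and leaving out 1 library 0 to 2 and 0 to 1 (26.4% to 55%). After IL-10 the lower count was 0 with the filter of 50 counts and 0 to 3 with 1 library left out (0% to 37.1%), and after TGF-β 0 to 3 (3.05% to 34.4%). The cause of these changes was not tested. EV libraries had lower totals than cell libraries and, outside the LPS group, more genes at 0. The part of either in these changes was not tested. No paired analysis was possible because the columns and labels carry no replicate pairing.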
